A study of Mus musculus with 12 samples.

Results

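Mucin-type glycosyltransferase genes of the mouse submandibular salivary gland (SMG) are described here by family. Members were chosen by name: protein-coding genes with a Gencode symbol made of Galnt, C1galt, Gcnt, B3gnt, B4galt, St3gal, St6gal, St6galnac or Fut and a number, together with C1galt1c1. The rule took 60 of the 56065 genes in the count table, and no measured value was used. By family these were 17 Galnt, 2 C1galt, 5 Gcnt, 8 B3gnt, 7 B4galt, 6 St3gal, 2 St6gal, 7 St6galnac and 6 Fut genes. The symbol St6galnac2 stands for 2 gene models on the same strand of chromosome 11, ENSMUSG00000057286 and ENSMUSG00000110170, between which reads can be split, so each was kept and their sum is also given. Fut10 and Fut11 now carry the symbols Pofut3 and Pofut4 and fall outside the rule.

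Bulk RNA-sequencing was performed on SMGs of 8-week-old mice in 4 groups of 3 biological replicates: female C57BL/6J, female C57BL/6J-Pou2f3-/-, male C57BL/6J and male C57BL/6J-Pou2f3-/-. C57BL/6J is the wild type, and C57BL/6J-Pou2f3-/- mice (strain C57BL/6J-Pou2f3em1Cbwi/J) carry a germline loss of Pou2f3, the transcription factor that defines tuft cells (TCs), in every cell of the body. The comparisons ask how these genes differ between sexes and with the loss of Pou2f3. Each library holds 1 mouse, so p-values rest on the spread between mice within groups. In the main fit this spread is pooled over all 4 groups.

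Mucin-type O-glycosylation is the stepwise attachment of sugars to serine and threonine in the Golgi, and it gives salivary mucins their bulk, charge and water-binding character. GALNT enzymes start the chain with N-acetylgalactosamine (GalNAc), C1GALT1 adds galactose to form core 1 with its chaperone COSMC (gene C1galt1c1), and GCNT enzymes branch it. B3GNT and B4GALT enzymes extend chains, and sialyltransferases (ST3GAL, ST6GAL, ST6GALNAC) and fucosyltransferases (FUT) cap them. Many members also act on N-glycans, glycolipids or proteoglycans, so their RNA is no measure of mucin glycosylation alone.

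The promoters of 5 members are shown because each was called in a comparison that follows: St3gal4, B4galt1, Galnt3 and C1galt1 were lower in male than in female wild-type glands, and St3gal5 was higher. They are not all members named below, and no promoter is shown for St3gal1, Galnt2, Galnt18, St6galnac1, St6galnac2 or C1galt1c1. Each runs from 250 bases before to 50 after the RefSeq start site on GRCm38.p6, 5′ to 3′ along the gene's strand. Capitals mark GGGCGG, the GC box bound by the Sp1 family, on either strand (as CCGCCC on the other), with matches that share bases counted separately. St3gal4 lies at chr9:35116815-35117114 (minus strand), B4galt1 at chr4:40853935-40854234 (minus), Galnt3 at chr2:66124744-66125043 (minus), C1galt1 at chr6:7844974-7845273 (plus) and St3gal5 at chr6:72097358-72097657 (plus).
St3gal4: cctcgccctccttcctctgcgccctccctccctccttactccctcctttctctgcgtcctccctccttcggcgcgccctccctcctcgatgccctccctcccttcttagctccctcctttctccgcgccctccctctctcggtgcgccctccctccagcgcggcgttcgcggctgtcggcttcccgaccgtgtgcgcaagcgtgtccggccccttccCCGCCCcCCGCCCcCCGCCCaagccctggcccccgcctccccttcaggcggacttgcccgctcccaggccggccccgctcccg
B4galt1: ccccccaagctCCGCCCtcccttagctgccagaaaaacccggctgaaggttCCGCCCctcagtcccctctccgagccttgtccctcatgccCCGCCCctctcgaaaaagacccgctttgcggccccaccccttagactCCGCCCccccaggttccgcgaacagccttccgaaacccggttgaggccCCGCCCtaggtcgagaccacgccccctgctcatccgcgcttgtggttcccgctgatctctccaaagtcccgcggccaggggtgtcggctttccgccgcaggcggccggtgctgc
Galnt3: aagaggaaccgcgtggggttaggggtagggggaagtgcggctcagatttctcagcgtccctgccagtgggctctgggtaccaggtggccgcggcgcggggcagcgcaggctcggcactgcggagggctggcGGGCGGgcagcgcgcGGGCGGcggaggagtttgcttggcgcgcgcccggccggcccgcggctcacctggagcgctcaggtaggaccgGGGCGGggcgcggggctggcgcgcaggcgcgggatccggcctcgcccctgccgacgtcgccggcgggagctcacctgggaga
C1galt1: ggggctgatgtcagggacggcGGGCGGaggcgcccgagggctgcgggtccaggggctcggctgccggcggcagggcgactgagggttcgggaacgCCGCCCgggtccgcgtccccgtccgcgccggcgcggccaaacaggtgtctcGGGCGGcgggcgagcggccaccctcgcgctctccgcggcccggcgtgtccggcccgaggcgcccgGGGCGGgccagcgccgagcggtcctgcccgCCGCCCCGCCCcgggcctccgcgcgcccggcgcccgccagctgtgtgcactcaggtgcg
St3gal5: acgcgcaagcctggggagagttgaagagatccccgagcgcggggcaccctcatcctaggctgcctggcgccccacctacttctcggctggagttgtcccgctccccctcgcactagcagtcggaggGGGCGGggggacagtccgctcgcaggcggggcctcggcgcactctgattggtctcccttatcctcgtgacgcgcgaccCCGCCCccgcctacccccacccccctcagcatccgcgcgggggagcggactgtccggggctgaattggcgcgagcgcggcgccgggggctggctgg
GGGCGG occurred 3 times in the St3gal4 promoter, 5 in B4galt1, 3 in Galnt3, 6 in C1galt1 and 2 in St3gal5. Of 32851 mouse promoters of this length 35.7% held it, against 57.6% of the 59 entries of 42 members. The letters AGAACA, from the response element of the androgen and glucocorticoid receptors, and CACGTG, the E-box, were searched on both strands as well and were in none of the 5 sequences. They occurred in 19.0% and 7.15% of all promoters and in 13.6% and 5.08% of the members' entries. The GC content had a median of 61.7% in the members' entries and 52.7% in all entries.

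Library totals ranged from 47031917 to 67881902 counts. A count of 0 allows up to 3 counts, and such limits cover counting error only. Pou2f3 was at the limit of detection: the 6 knockout libraries held 0 to 3 counts and the 6 wild-type libraries 0 to 10, so it gave no check of the labels. Of 10 TC markers, Gnat3 and Il25 were at 0 in every library and 5 were tested. Of these 5, 1 was called higher in the female knockout by edgeR, against 17.6% of all genes, and none was called in males. The summed level of the 10 overlapped between genotypes in each sex. In females it was 19.9 to 27.95 CPM in wild type and 25.1 to 26.9 CPM in the knockout, and in males 11.7 to 13.7 and 12.04 to 17.4 CPM. All 12 acinar, 12 granular convoluted tubule and 10 ductal markers passed the filter on low counts. The third female knockout and the third male wild-type library stood apart, with 228637 and 518166 counts of the gel-forming mucin Muc19 against 111 to 7767 elsewhere. Results that rest on them are marked or are given with and without them. Muc19 is also among the 12 acinar markers, so the summed acinar levels below include it.

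Of the 60 members, 45 were above 3 counts in every library and 13 in some, while B3gnt4 never passed 3 counts and Gcnt7 was at 0 throughout. The edgeR filter on low counts kept 49 members among 17893 genes. The 11 members left untested were B3gnt4, B3gnt7, Fut1, Fut7, Galnt9, Galnt13, Galnt14, Gcnt4, Gcnt7, St6gal2 and St6galnac5, whose highest count in any library was 33, for Galnt9. Among them are the core 2 enzyme Gcnt4 and the H-antigen enzyme Fut1.

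To compare levels between genes, counts scaled to library size (CPM) were divided by the length of the longest coding transcript in kilobases. In female wild-type glands the sialyltransferase St3gal1, which caps core 1 with sialic acid, had the highest level of all members at 137 ± 5.04 CPM per kilobase (SD, n = 3), followed by St3gal4 at 84.6 ± 9.48 and the initiating enzyme Galnt3 at 49.2 ± 6.97. Ranges of these 3 did not meet. Galnt7 (25.8 ± 3.12), B4galt1 (19.9 ± 1.09) and C1galt1 (15.2 ± 1.99) came next. With the median length of coding transcripts in place of the longest, B4galt1 (30.8 ± 1.69) came before Galnt7 (26.5 ± 3.22) and C1galt1 (24.3 ± 3.17), and the first 3 kept their order. In male wild-type glands Galnt3 led at 27.2 ± 6.44, with Galnt2 (16.8 ± 2.09), Galnt10 (16.2 ± 2.00) and St3gal4 (15.2 ± 1.31) behind it and St3gal1 at only 6.94 ± 4.98. The levels of Galnt2, Galnt10 and St3gal4 in these males lay within their spread of each other, and by the median length Galnt10 (22.8 ± 2.81) came second.

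**Figure D1:**
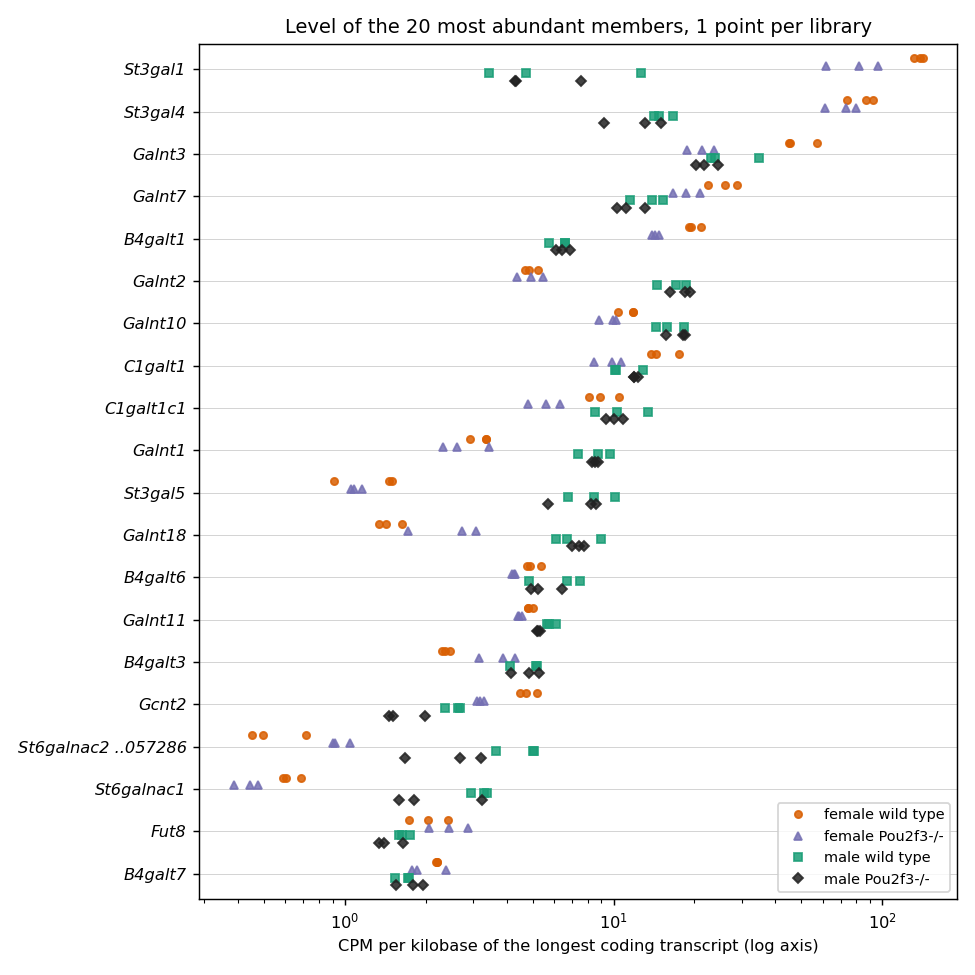
Level of the 20 members with the highest group mean, in CPM per kilobase on a log axis, with 1 point for each of the 12 libraries, coloured by group (St6galnac2 models are labelled by the end of their identifiers). St3gal1, St3gal4 and B4galt1 of both female groups lie to the right of both male groups, and Galnt2, Galnt1, St3gal5 and Galnt18 to the left.

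Summed by family, St3gal genes made up 225 ± 8.53 CPM per kilobase in female wild type, 154 ± 26.6 in female knockout, 32.1 ± 6.38 in male wild type and 27.5 ± 2.88 in male knockout. Every female library was above every male library. Summed Galnt levels were closer, at 104 ± 10.2, 67.7 ± 3.92, 99.3 ± 12.6 and 93.4 ± 5.47 in the same order, and the female knockout lay below the other groups. The B4galt sums fell in the order 31.0 ± 0.947, 25.4 ± 0.183, 20.2 ± 0.960 and 20.2 ± 1.40, and the St6galnac sums were higher in both male groups, at 2.29 ± 0.404, 2.57 ± 0.226, 9.14 ± 1.05 and 6.70 ± 1.02. B3gnt, Fut, Gcnt and St6gal genes were low, with sums of at most 5.70 in any group.

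Male and female wild-type glands differed in 22 of the 49 members by edgeR's quasi-likelihood test (adjusted p under 0.05), 11 higher and 11 lower in males. Of all genes tested 36.5% were called, 20.5% higher and 16% lower in males, and of protein-coding genes 40.5%. The groups did not overlap for 26 of 49 members, against 47.6% of all genes. In size, the members' log2 fold changes had a median of 0.74 regardless of sign, against 0.40 for protein-coding genes. The same medians were 0.80 and 0.44 between the sexes in knockout, 0.29 and 0.38 for genotype in females and 0.32 and 0.15 for genotype in males. In bulk tissue, fewer cells of a type and less RNA per cell cannot be told apart. Between the sexes, 11 of 12 granular convoluted tubule markers were higher in males, with a summed level of 5256 to 9917 CPM in female and 91328 to 169506 CPM in male wild type, 1 was lower (the kallikrein Klk1, -1.04), and 7 of 12 acinar markers were lower, with 50171 to 58969 and 14301 to 20519 CPM. The male acinar sums include Muc19, high in the third library, and 6 to 8 acinar markers were lower over the alternatives. Of 7 adipocyte markers 6 were lower in males, at 4.16 to 85.6 CPM in female and 1.69 to 2.03 CPM in male wild type, where the female median was 11.2 CPM. Over the alternatives 0 to 6 were lower, 0 without female wild-type replicate 3 and 2 without the 2 libraries high in Muc19. Of 6 myoepithelial markers tested 4 were higher and 1 lower in males (summed level of 142 to 188 CPM in female and 364 to 438 CPM in male wild type), and of 10 ductal markers 4 were higher and 1 lower (305 to 401 and 513 to 544 CPM). Of 7 endothelial markers 5 were lower (33.7 to 38.7 and 19.5 to 22.7 CPM) and of 8 macrophage markers 6 (89.4 to 209 and 76.6 to 91.8 CPM), with 1 to 6 macrophage markers lower over the alternatives and 1 without the 2 libraries high in Muc19. The part of these cell types in the members' differences was not tested.

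Of the 6 St3gal members tested, 3 differed between the sexes, St3gal1 and St3gal4 lower and St3gal5 higher in males. St3gal1 (chr15:66974724-67048690, minus strand, GRCm39) stood at 46242, 47595 and 44235 normalized counts in female wild type and 1590.5, 1151 and 4243 in male wild type. The groups were far apart, and the highest male value came from the third library, the one high in Muc19. St3gal1 was 19.8-fold lower in males (log2 fold change -4.31 ± 0.44, standard error, adjusted p = 8.9e-06 by edgeR), and the log2 fold change was -5.07 ± 0.32 without the 2 libraries high in Muc19 (adjusted p = 1.7e-06 by edgeR). St3gal4, which sialylates galactose on several glycan types, read 12304, 14435 and 15375 in females and 2448, 2342 and 2761 in males, 5.58-fold lower (-2.48 ± 0.18, adjusted p = 4.8e-07 by edgeR). St3gal5, the GM3 synthase that makes gangliosides rather than mucin glycans, went the opposite way, with 135, 215 and 222 normalized counts in females and 1002, 1492 and 1249 in males. No female value came near a male one (2.72 ± 0.21, 6.58-fold, adjusted p = 1e-06 by edgeR). St3gal2, St3gal3 and St3gal6 had log2 fold changes of -0.11, 0.03 and -0.74 and were not called.

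Of 4 genes that place sialic acid on the GalNAc of O-glycans, St6galnac1 and St6galnac2 were higher in males. St6galnac1 had 83.2, 94.7 and 81.4 normalized counts in female and 455, 466 and 409 in male wild type (2.36 ± 0.24, adjusted p = 8.7e-06 by edgeR). For St6galnac2, the sum of both gene models was 157, 102 and 107 in females and 1134, 1086 and 810 in males (3.04 ± 0.24, adjusted p = 8.6e-07 by edgeR). All male libraries exceeded all female ones for both genes. St6galnac3 and St6galnac4 had log2 fold changes of -0.92 and 0.00, and the ganglioside enzyme St6galnac6 0.11, and none of these was called.

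Initiating enzymes split by member. Galnt2 read 1262.5, 1169.7 and 1135 normalized counts in female wild type and 3513, 4142 and 4516 in male wild type (1.77 ± 0.12, 3.41-fold, adjusted p = 2.8e-07 by edgeR). Galnt18, the member with the widest rise of its family, read 208, 254 and 221.5 in females and 949, 1391 and 1041 in males (2.31 ± 0.20, adjusted p = 2.2e-06 by edgeR). Galnt1, a broadly expressed initiator, was 2.68-fold higher in males (1.42 ± 0.14, adjusted p = 6.6e-06 by edgeR), and Galnt10 was 1.43-fold higher (adjusted p = 0.0034 by edgeR), a call kept in all 21 alternatives. Galnt11 was 1.20-fold higher (adjusted p = 0.017 by edgeR), a call lost in 8 of 21. Galnt3 and Galnt7 were lower in males, by 1.81-fold and 1.90-fold (adjusted p = 0.0015 and 0.00023 by edgeR). Galnt7 is known to act best on peptides that already carry GalNAc. The other 7 Galnt members tested were not called.

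Of the chain-extending and branching members called, all but B4galt3 were lower in males. B4galt1, the main galactosyltransferase of N-acetyllactosamine chains, read 6818, 6719 and 7425 normalized counts in female and 2009, 2314 and 2312 in male wild type, 3.16-fold lower and with the smallest p of all members (-1.66 ± 0.10, adjusted p = 8.5e-08 by edgeR). B4galt3 read 372, 398 and 381 in females and 836, 663 and 831 in males (1.02 ± 0.14, adjusted p = 9.4e-05 by edgeR). Gcnt2, which makes I-antigen branches, read 1347, 1277 and 1472 in females and 673, 761 and 754 in males (-0.90 ± 0.12, adjusted p = 6.5e-05 by edgeR). The core 2 enzyme Gcnt3 fell from 247, 67.4 and 99.5 to 1.54, 0 and 32.2 (-3.62 ± 1.04, adjusted p = 0.019 by edgeR), with its one clear male value in the third library. Without the 2 libraries high in Muc19 both remaining male values were under the limit of 3 counts and the call held (adjusted p = 0.0014 by edgeR), at a fitted -7.24 that depends on the prior count. C1galt1, the core 1 enzyme, and B4galt7, a proteoglycan linker enzyme, fell by 0.46 and 0.40 on the log2 scale (adjusted p = 0.016 and 0.034 by edgeR). Without the 2 libraries high in Muc19 the differences were -0.41 and -0.35 and neither was called (adjusted p = 0.087 and 0.11 by edgeR). No B3gnt member was called.

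Fucosyltransferases also split. Fut2, a maker of the H antigen in secretions, and Fut9, a Lewis x enzyme, were lower in males by 2.65-fold and 1.76-fold (adjusted p = 0.003 and 0.0055 by edgeR), and Fut4 was 3.26-fold higher (adjusted p = 0.00058 by edgeR). Fut8, which fucosylates the core of N-glycans and led the family per kilobase, read 384, 453 and 535 normalized counts in female and 362, 352 and 386 in male wild type, with overlapping groups (-0.32 ± 0.15, adjusted p = 0.12 by edgeR). St6gal1, an N-glycan sialyltransferase, read 206, 127 and 170.3 in females and 168, 140.4 and 134 in males, also overlapping.

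**Figure D2:**
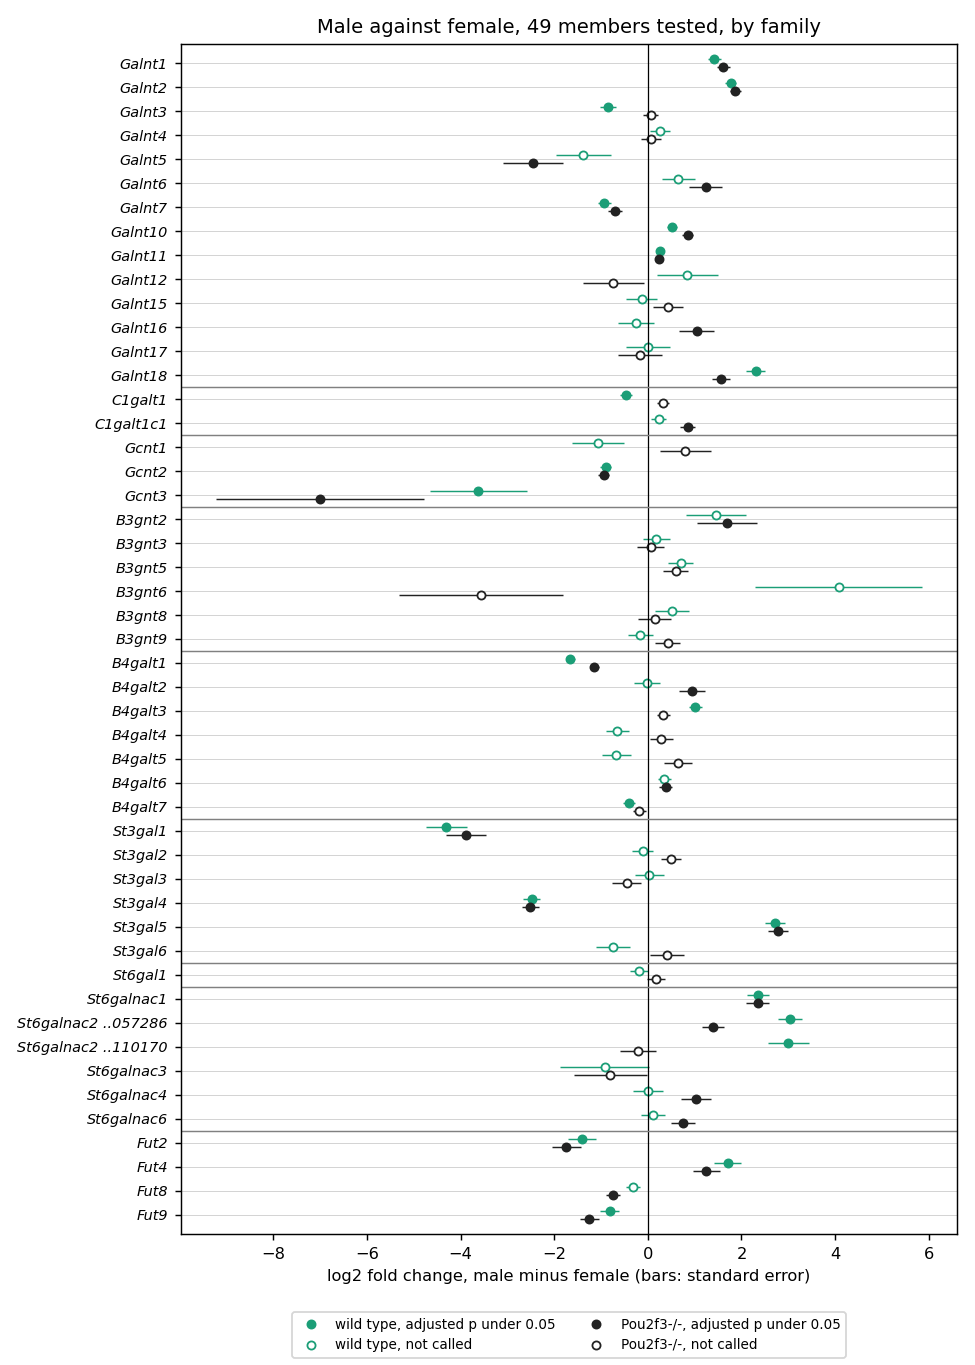
Log2 fold change between males and females (male minus female) for the 49 tested members by family, in wild type (green) and Pou2f3-/- (black), with bars for the standard error and filled points where the edgeR adjusted p was under 0.05 (St6galnac2 models are labelled by the end of their identifiers). St3gal1 and St3gal4 lie far left and St3gal5, St6galnac1 and Galnt2 right of 0 in both genotypes.

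In Pou2f3-/- glands, a separate set of 6 libraries, the sexes differed in 27 of 49 members, 17 higher and 10 lower in males, against 43.5% of all genes tested (23.2% higher, 20.3% lower) and 45.7% of protein-coding genes. The groups did not overlap for 30 of 49 members, against 54.8% of all genes. In the same libraries 11 of 12 granular convoluted tubule markers were higher in males and Klk1 lower (5656 to 11466 CPM summed in female and 118937 to 160677 CPM in male knockout), and 7 of 12 acinar markers were lower (30735 to 41023 and 10540 to 14448 CPM). The female acinar sums include Muc19, high in the third library, and 5 to 8 acinar markers were lower over the alternatives. Of 6 myoepithelial markers 5 were higher (115 to 128 and 282 to 399 CPM), of 10 ductal markers 7 higher and 2 lower (291 to 344 and 431 to 568 CPM), and of 7 endothelial markers 5 lower (27.9 to 32.7 and 16.9 to 22.7 CPM). Macrophage markers were higher in 3 of 8 (72.6 to 109 and 94.5 to 165 CPM), and in 1 to 5 over the alternatives. Of 7 adipocyte markers 5 were higher in males (2.59 to 7.27 and 4.12 to 63.9 CPM, overlapping), the opposite direction from wild type, and 0 to 7 over the alternatives, with 0 without female knockout replicate 1, female knockout replicate 3, male knockout replicate 2 or the 2 libraries high in Muc19. The part of these cell types in the members' differences was not tested. Of the 27 called, 17 had also been called in wild type and all 17 kept the direction, 9 higher and 8 lower in males. Over all genes, 48.1% of those called in knockout were also called in wild type, and of these 86.2% had the same direction. St3gal1 read 27479, 20739 and 32262 normalized counts in female and 1447.5, 2541 and 1449 in male knockout (-3.89 ± 0.43, adjusted p = 1.9e-05 by edgeR), again far apart. St3gal4 read 12132, 10152 and 13236 in female and 2501, 2180.0 and 1532 in male knockout (-2.52 ± 0.18), and St3gal5 171, 156 and 159.9 against 1219, 843 and 1270.0 (2.77 ± 0.21). Galnt2 read 1188, 1323 and 1061 against 4662, 3928 and 4448 (1.87 ± 0.12). All groups were separate, as in wild type. B4galt1 read 2408, 2248 and 2143 in male knockout, below the female knockout values given for it further on (-1.15 ± 0.09). Galnt1 read 608, 900.4 and 685 in female and 2241, 2172 and 2293 in male knockout (1.61 ± 0.14), after 882, 769 and 879 in female and 1926, 2552 and 2299.8 in male wild type. St6galnac1 read 61.2, 53.4 and 65.7 against 449.5, 219 and 249.6 (2.35 ± 0.25). The adjusted p of these 6 members ranged from 2.5e-07 to 1.1e-05 by edgeR, and every male library lay on one side of every female library. Called in wild type only were C1galt1, Galnt3, B4galt3, B4galt7 and one St6galnac2 model, and called in knockout only were 10 members, among them C1galt1c1 (0.85 ± 0.16, adjusted p = 0.00092 by edgeR), Fut8 (-0.75 ± 0.15, adjusted p = 0.0015) and Galnt5 (-2.46 ± 0.64, adjusted p = 0.0076). In wild type these 3 had log2 fold changes of 0.23, -0.32 and -1.38. The Galnt5 value there includes the third male library, high in Muc19, at 154 normalized counts against 18.4 and 36.1 in its group. With a replicate block Galnt5 was also called in wild type (-1.70, adjusted p = 0.018 by edgeR). B3gnt2, also in this set, had 1.45 in wild type and 1.69 in knockout. Its knockout call was lost in 13 of the alternatives, with values of 1.22 to 3.09 when 1 library was left out. None of the 10 was called by the interaction term in the main fit, so the difference between the genotypes was not shown for them there. C1galt1c1 was called lower by this term with RLE normalization, with the authors' factors and with a replicate block (-0.65, adjusted p = 0.034 by edgeR with the block). Gcnt3 was at 0 in all 3 male knockout libraries and at 6.93, 23.3 and 17.3 normalized counts in female knockout, at least 5.71-fold higher against a limit of 3 counts per library. Counts in this comparison moved with the libraries used: without male knockout replicate 2, 19 members and 35.1% of all genes were called.

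Knockout against wild type in females gave 12 of 49 members called, 4 higher and 8 lower in Pou2f3-/- glands. Among all genes tested 36.9% were called, 17.6% higher and 19.3% lower, and of protein-coding genes 38.5%, so the members' share was below that of the whole table. In 18 of 49 members the groups did not overlap, against 49.3% of all genes. The median log2 fold change of the members was -0.14, of protein-coding genes -0.08 and of all genes 0.03. In the same libraries 4 of 12 acinar markers were lower in the knockout and none higher, with summed levels of 50171 to 58969 CPM in wild type and 30735 to 41023 CPM in knockout. The knockout sums include Muc19, high in the third library, and 3 to 5 acinar markers were lower over the alternatives. Of 8 macrophage markers 4 were lower and of 7 adipocyte markers 3, with summed levels of 89.4 to 209 and 4.16 to 85.6 CPM in wild type and 72.6 to 109 and 2.59 to 7.27 CPM in knockout. Over the alternatives 0 to 6 markers of each list were lower, with no macrophage marker called without female wild-type replicate 1, no adipocyte marker without female wild-type replicate 3, and none of either without female knockout replicate 1, without female knockout replicate 3 or without the 2 libraries high in Muc19. Of 6 myoepithelial markers 3 were lower and none higher, with summed levels of 142 to 188 CPM in wild type and 115 to 128 CPM in knockout, and of 7 endothelial markers 1 was lower (33.7 to 38.7 and 27.9 to 32.7 CPM). Of 10 ductal markers 4 were lower, with overlapping sums (305 to 401 and 291 to 344 CPM), and over the alternatives 1 to 5 were lower and 0 to 3 higher. In the fit without the 2 libraries high in Muc19, 1 myoepithelial, 1 ductal and no endothelial marker was lower. The part of these cells in the result was not tested.

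Among initiating enzymes Galnt3 and Galnt7 were lower in the female knockout, Galnt18 was higher and the other 11 of 14 were not called, while both C1galt members were lower. Galnt3 (chr2:65913110-65955482, minus strand, GRCm39) read 10059, 10214 and 12842 normalized counts in female wild type and 4231, 4800 and 5290.3 in female knockout. The knockout values were all far below the lowest wild-type value, and 2 of the 3 lay within the range of the male libraries, 4532 to 7781. Galnt3 was 2.31-fold lower, the smallest p among the members (-1.21 ± 0.17, adjusted p = 0.00037 by edgeR). C1galt1 (chr6:7844634-7875687, plus strand) read 10994, 8686 and 9012 against 5323, 6693 and 6169, 1.58-fold lower (-0.66 ± 0.13, adjusted p = 0.0026 by edgeR). Its chaperone gene C1galt1c1 (chrX:37719034-37724025, minus strand) read 1106, 1218 and 1429 against 657, 862 and 770 (-0.71 ± 0.16, adjusted p = 0.0043 by edgeR). Both genes of core 1 formation were thus lower in all 3 knockout libraries than in any wild-type library. Galnt7 was 1.37-fold lower (-0.46 ± 0.14, adjusted p = 0.021 by edgeR).

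Among branching and extending members, Gcnt2 read 880, 906 and 936 normalized counts in female knockout, below all 3 wild-type values given for it (-0.59 ± 0.12, adjusted p = 0.0021 by edgeR). B4galt1 read 4989, 5193 and 4858, a 1.39-fold fall (-0.48 ± 0.09, adjusted p = 0.0019 by edgeR). B4galt4, known to extend sulfated chains, was 1.71-fold lower (-0.78 ± 0.25, adjusted p = 0.028 by edgeR), and Gcnt3 read 6.93, 23.3 and 17.3 (-3.11 ± 1.02, adjusted p = 0.035 by edgeR). B4galt3 rose to 696, 512 and 625, 1.59-fold higher (0.67 ± 0.14, adjusted p = 0.0027 by edgeR). Galnt18 read 478, 425 and 266, 1.71-fold higher (0.78 ± 0.20, adjusted p = 0.009 by edgeR). The sum of the St6galnac2 models read 242, 218 and 211 (0.86 ± 0.23, adjusted p = 0.012 by edgeR). All knockout values of these 3 genes lay above the wild-type ones. St3gal1 values in the knockout were also all below those in wild type, but the difference did not pass the test (-0.78 ± 0.39, adjusted p = 0.13 by edgeR). Without the 2 libraries high in Muc19 it was -0.93 ± 0.26 (adjusted p = 0.025 by edgeR). No B3gnt, St3gal, St6gal or Fut member was called.

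**Figure D3:**
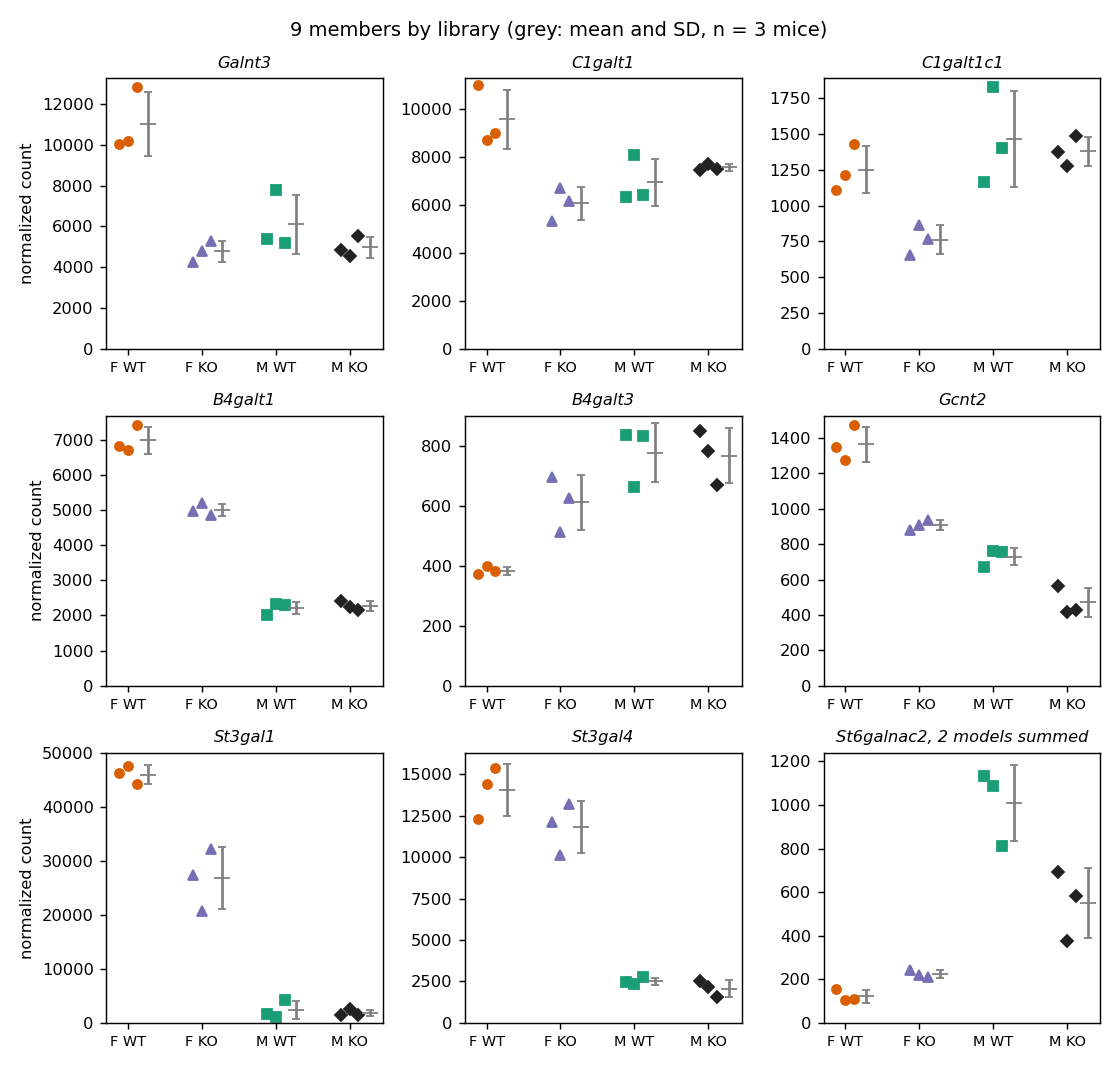
Normalized counts of 9 members in each library (points) with the group mean and SD in grey (n = 3 mice; F female, M male, WT wild type, KO Pou2f3-/-), on linear axes from 0. In females Galnt3, C1galt1, C1galt1c1, B4galt1 and Gcnt2 are lower and B4galt3 and St6galnac2 higher in the knockout without overlap, while the male groups overlap except in Gcnt2 and St6galnac2.

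Of the 12 members called in females, 6 kept call and direction under all 22 alternative settings: Galnt3, C1galt1, C1galt1c1, B4galt1, B4galt3 and Gcnt2. The St6galnac2 model ENSMUSG00000110170 kept its call in every alternative where it was tested. Gcnt3 lost its call with DESeq2, with a replicate block (adjusted p = 0.056 by edgeR), when any 1 of the female knockout libraries was left out, and without female wild-type replicate 1 or 3, and it was not tested with at least 10 counts required. With female knockout replicate 1 left out 8 members and 27.9% of all genes were called, without B4galt4, Galnt18, Gcnt3 and the larger St6galnac2 model.

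In males no member passed the test, against 0.235% of all genes (42 of 17893) and 0.289% of protein-coding genes, with 16 members at an unadjusted p under 0.05, against 11.5% of all genes, and 2 called by DESeq2, against 2.42% of genes with an adjusted p. When single settings of the edgeR fit were changed, 1 member was called with upper-quartile normalization (0.224% of all genes), 1 with library sizes from protein-coding genes (0.246%), 1 with at least 10 counts required (0.402%) and 3 without the filter on low counts (1.26%). Groups did not overlap for 10 of 49 members, against 14.5% of all genes. The member with the smallest p was Gcnt2, at 673, 761 and 754 normalized counts in wild type and 565, 417 and 429 in knockout (-0.63 ± 0.12, adjusted p = 0.055 by edgeR). All 3 knockout values lay below the wild type, as they did in females, where the log2 fold change was -0.59. Next came the St6galnac2 models, whose sum read 1134, 1086 and 810 against 690.2, 377 and 581 (-0.88 ± 0.21, adjusted p = 0.12 by edgeR). B3gnt9 read 59.2, 56.7 and 49.5 in wild type and 76.5, 126 and 102 in knockout (0.88 ± 0.26, adjusted p = 0.2 by edgeR). B4galt5, a lactosylceramide synthase, read 102, 94.4 and 71.7 against 93.3, 233 and 209 (0.99 ± 0.31, adjusted p = 0.21), and Galnt16 26.1, 41.9 and 50.3 against 60.6, 119 and 79.9 (1.13 ± 0.37, adjusted p = 0.24, both by edgeR). B4galt5 overlapped through knockout replicate 1. Without that library 5 members were called, against 3.42% of all genes in that fit: B4galt5, Galnt15, Gcnt2, St6galnac1 and St6galnac2 (ENSMUSG00000057286). In that fit 5 of 7 adipocyte and 3 of 8 macrophage markers were higher and 4 of 12 acinar and 3 of 10 ductal markers lower, where with all libraries 1 ductal marker was called and none of the other 3 lists. From wild type to knockout, summed levels were 1.69 to 2.03 and 4.12 to 63.9 CPM for adipocyte, 76.6 to 91.8 and 94.5 to 165 CPM for macrophage and 14301 to 20519 and 10540 to 14448 CPM for acinar markers (Muc19 included, high in the third wild-type library), and their part in the members' values was not tested. C1galt1 and C1galt1c1 had log2 fold changes of 0.13 and -0.09, and B3gnt5, the glycolipid enzyme that led its family per kilobase, one of 0.43.

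Several members called in females were at overlapping levels in the male groups. Galnt3 read 5367, 7781 and 5193 normalized counts in male wild type and 4862, 4532 and 5510.4 in male knockout, C1galt1 6328, 8079 and 6402 against 7469.7, 7717 and 7507, and C1galt1c1 1165, 1831 and 1403 against 1375, 1280.3 and 1484. In each of these the groups overlapped, as they did for B4galt1 and for B4galt3, which read 849.7, 782 and 669 in male knockout, and for Galnt18, which read 1087, 1201 and 1154 there. B3gnt5 read 228, 483 and 349.6 in male wild type and 439, 512 and 479 in male knockout, and 148, 257 and 250.2 in female wild type against 282, 411 and 252 in female knockout. Both pairs of groups overlapped.

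B3gnt9, B4galt5 and Galnt16, given above for males, overlapped between genotypes in females. There B3gnt9 read 71.9, 57.1 and 55.8 normalized counts in female wild type and 58.9, 68.9 and 99.1 in female knockout, B4galt5 172, 144 and 113 against 91.2, 133 and 118, and Galnt16 64.1, 36.3 and 39.2 against 30.0, 59.2 and 35.9. Fut8 and St6gal1 lead their families per kilobase. Fut8 read 455, 636 and 540.3 in female and 297, 365 and 310.5 in male knockout, with every male value lower. St6gal1 read 185, 220.2 and 157 in female and 185, 220.2 and 231 in male knockout, overlapping.

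**Figure D4:**
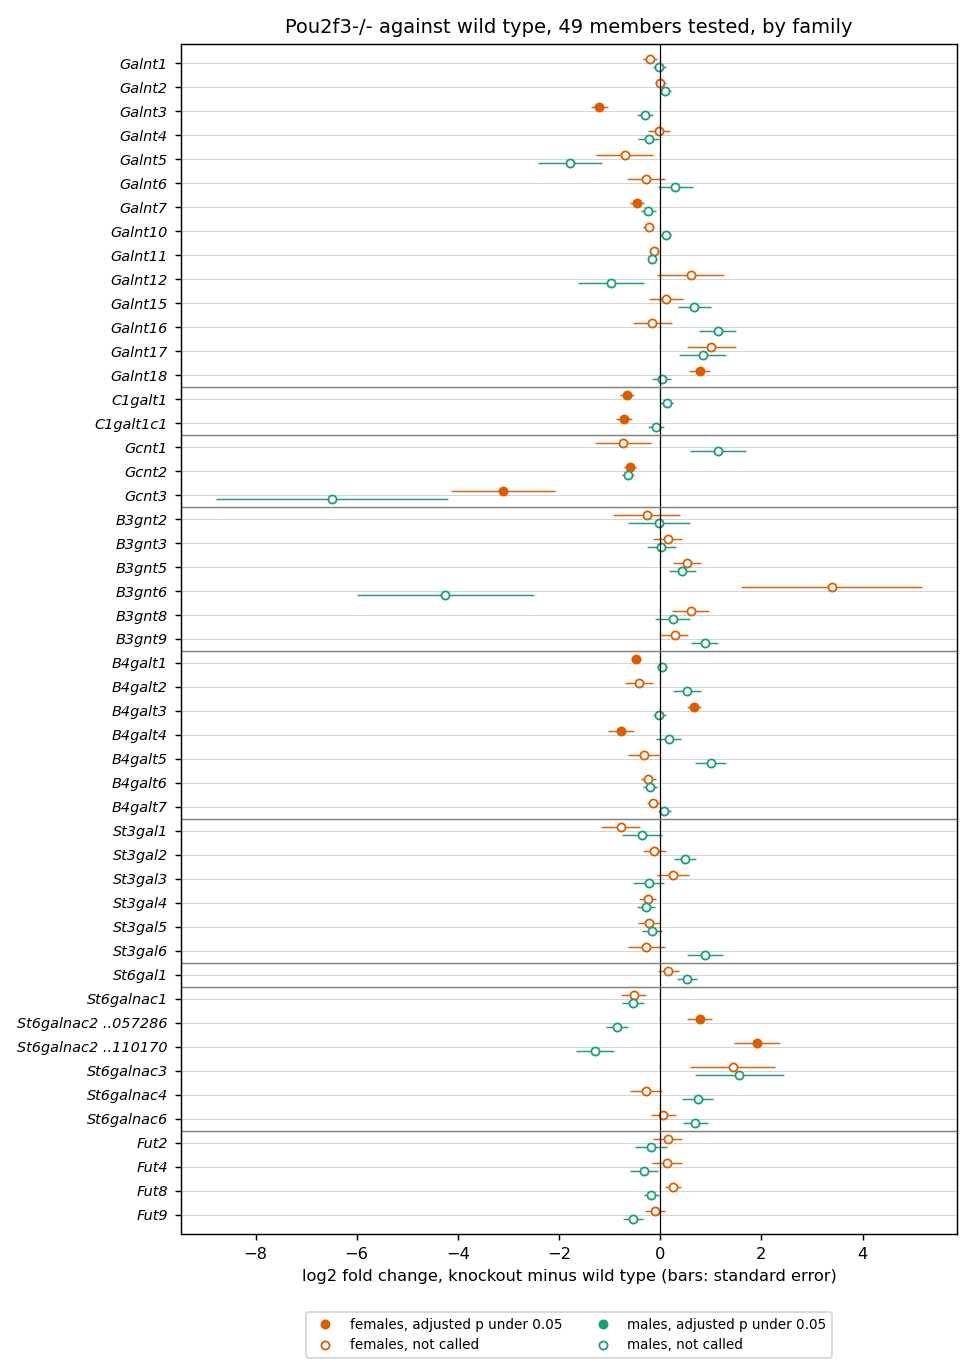
Log2 fold change between Pou2f3-/- and wild type for the 49 tested members by family, in females (orange) and males (green), with bars for the standard error and filled points where the edgeR adjusted p was under 0.05. In females 12 points are filled and in males none, and Gcnt2 has nearly the same value in both sexes.

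The effect of genotype differed between the sexes in 8 of 49 members by the interaction term (females minus males), against 25.7% of all genes tested and 26.6% of protein-coding genes. All 7 adipocyte and 4 of 8 macrophage markers were also lower by this term, with summed levels of 1.69 to 2.03 and 76.6 to 91.8 CPM in male wild type and 4.12 to 63.9 and 94.5 to 165 CPM in male knockout, and their part in the members' calls was not tested. Over the alternatives 1 to 7 adipocyte and 0 to 8 macrophage markers were lower, with 1 and 0 without the 2 libraries high in Muc19. St6galnac2 had the widest contrast with a small error: higher in the knockout in females and lower, though not past the test, in males (sum of both models 1.74 ± 0.31, adjusted p = 0.0046 by edgeR). C1galt1 (-0.78 ± 0.19, adjusted p = 0.013), Galnt3 (-0.91 ± 0.23, adjusted p = 0.016) and B4galt1 (-0.51 ± 0.13, adjusted p = 0.016) had a more negative genotype difference in females than in males, and B4galt3 a more positive one (0.69 ± 0.19, adjusted p = 0.022, all by edgeR). The call for B4galt3 was lost in 9 of 21 alternatives, against 1 for C1galt1, 1 for B4galt1 and 2 for Galnt3. The 2 remaining calls, B4galt5 and B3gnt6, had an adjusted p of 0.041 and 0.04 by edgeR, and B4galt5 lost its call in 13 of 21 alternatives. Without the 2 libraries high in Muc19, 3 members and 6.21% of all genes were called, the members being both St6galnac2 models and Galnt18. In that fit C1galt1 (-0.74), Galnt3 (-0.88) and B4galt1 (-0.52) had nearly the same values with an adjusted p of 0.067, 0.061 and 0.067.

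The libraries high in Muc19 were also high in some members. B3gnt6, which makes core 3 on mucins, read 280.1 normalized counts in female knockout replicate 3 and 453.5 in male wild-type replicate 3, against 1.94 to 16.9 in the other 10 libraries. Both values were far above the rest, 26.95 and 55.2 times the next library of their own groups. Galnt12 was 2.13 and 6.13 times the next library of its group in these libraries and Galnt5 1.66 and 4.27 times. Other members were not raised, and B3gnt2 was the lowest of its group in both. It read 4.96 normalized counts against 39.3 and 124 in female knockout and 118 against 164 and 281 in male wild type. In male wild type alone Gcnt3 and St3gal1 were 20.9 and 2.67 times the next library, and in female knockout alone Galnt17 was 2.15 times. The secretory gene Dcpp2 was high in the same 2 libraries as well, at 24499 and 41695 normalized counts against 0 to 1447 elsewhere, and the part of these genes' source in the members' values was not tested.

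**Figure D5:**
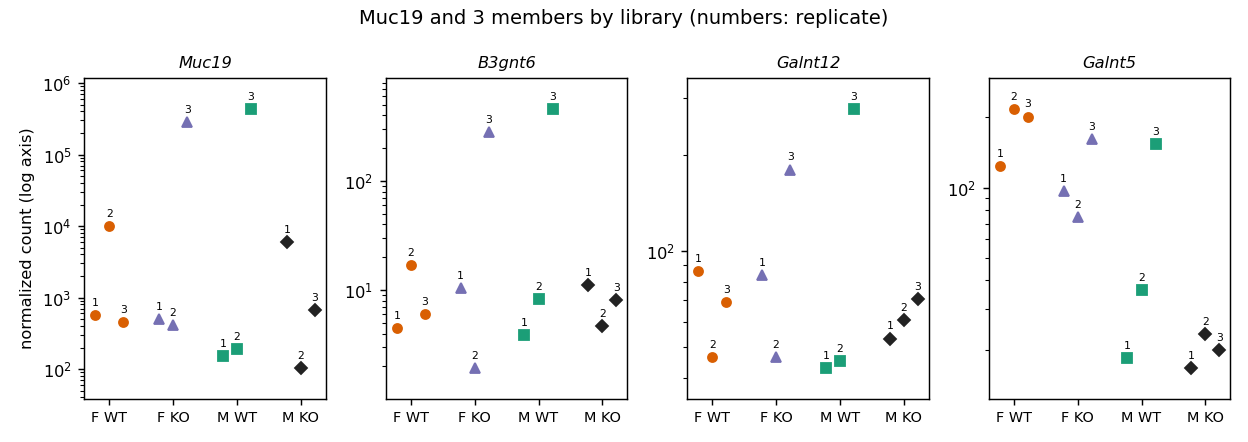
Normalized counts, on log axes that differ between panels, of the mucin Muc19 and of the members B3gnt6, Galnt12 and Galnt5 in each library, with the replicate number above each point. Replicate 3 of female knockout and replicate 3 of male wild type are the highest of their groups in all 4 panels.

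A list of 20 enzymes and transporters that supply the activated sugars was tested in the same fits. Of these, 14 were lower and 1 higher in the female knockout by edgeR, against 19.3% of all genes lower and 17.6% higher, and 12 to 15 were lower under every alternative. The summed level was 1512 to 1735 CPM in wild type and 1041 to 1206 CPM in knockout, libraries in which the acinar markers were also lower (50171 to 58969 and 30735 to 41023 CPM, Muc19 included), and their part in the result was not tested. Gnpnat1, in the UDP-N-acetylglucosamine route, fell by 1.08 on the log2 scale (adjusted p = 0.00025), Cmas, which activates sialic acid, by 0.79 (adjusted p = 0.00037), and Slc35a1, its Golgi transporter, by 0.71 (adjusted p = 0.00085), all by edgeR. Galt, of galactose metabolism, rose by 0.68 (adjusted p = 0.0019 by edgeR). In males none of the 20 was called, nor under any alternative, against 0.235% of all genes. Between the sexes in wild type 10 were lower and 2 higher in males (8 to 12 and 1 to 3 over the alternatives), against 16% and 20.5% of all genes, led by Gne, the key enzyme of sialic acid synthesis (-1.82, adjusted p = 2.8e-06 by edgeR), at 18266 ± 2686 normalized counts in females and 5186 ± 274 in males (SD, n = 3). Knockout glands differed from this, with 5 lower and 5 higher in males, against 20.3% and 23.2% of all genes (3 to 6 lower and 4 to 7 higher over the settings). By the interaction term 10 were lower and 1 higher, against 12.4% and 13.4% of all genes (2 to 13 lower and 0 to 1 higher over the settings). These shares of all genes are of the main fit and differ in other settings.

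Of 23 other genes for glycosyltransferases and sulfotransferases of related families, several of them acting on glycolipids or N-glycans, 15 were tested. Between the sexes in wild type 2 were higher in males, the ganglioside enzyme B4galnt1 and B4galnt2, and 3 lower, Galntl6, the globoside enzyme B3galnt1 and the polysialyltransferase St8sia4, a share near the 36.5% of all genes called. In the female knockout 1 was lower, B3galt5, a galactosyltransferase of type 1 chains (-0.90 ± 0.21, adjusted p = 0.005 by edgeR), and in males none. Of 14 mucin genes 9 were tested. Between the sexes in wild type, log2 fold changes of males against females were -2.07 for the abundant SMG mucin Prol1 (Muc10), 3.46 for Muc13, a membrane mucin, and -8.50 for Smgc, whose male counts were 1, 1 and 1428, the last in the library high in Muc19. Without the 2 libraries high in Muc19 both male counts of Smgc were under the limit of 3 counts, and the call held (adjusted p = 1.61e-05 by edgeR). In the female knockout with all libraries only Muc2 was called, at 78.9 ± 116 normalized counts against 1.37 ± 1.30 in wild type (SD, n = 3), a spread wider than its mean. Muc2 (6.27, adjusted p = 0.014) and Muc13 (0.77, adjusted p = 0.038) were called without the 2 libraries high in Muc19, both by edgeR. Pofut3 and Pofut4 were not called in the knockout of either sex, and Pofut4 was higher in males in both genotypes (0.37 and 0.52).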

How the data were processed

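RNA from whole SMGs of 12 mice was sequenced as bulk libraries, per the labels by a stranded protocol with ribosomal RNA removal, although the molecule field of the labels names polyA RNA. The authors quantified reads with Salmon 1.10.1 against Gencode transcripts and deposited estimated counts per gene. The authors also deposited a normalized signal, the counts divided by factors per gene and library. How those factors were made is not given in the sources used here, and they served only in an alternative.

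Estimated counts were rounded and fitted with edgeR 4.0.16 (R 4.3.3; limma 3.58.1) over all 12 libraries with TMM normalization, filterByExpr and the quasi-likelihood test. Each of the 4 groups had a mean of its own, and adjusted p-values (Benjamini-Hochberg) cover all 17893 genes tested. Normalized counts are counts divided by TMM-scaled library size. The study's methods name DESeq2, which was run as an alternative (DESeq2 1.42.0). Sex within knockout glands was compared after the other contrasts. Gene positions are from Gencode M39 (GRCm39), and promoters are RefSeq entries of GRCm38.p6, matched by symbol.

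Values in every library are given for the 6 members with the smallest p in each contrast, the member of each family highest per kilobase over all groups, C1galt1 and C1galt1c1 (the St6galnac2 models as their sum). Other members were named after their values were seen. Members and lists were chosen with earlier results of these data known. On simulated data for the female comparison with 200 of 17893 genes raised 3-fold and the rest unchanged, 80.5% were recovered and 4.73% of calls were false. In the real female comparison 36.9% of genes were called, in both directions, so these rates need not hold there or for smaller changes. Alternatives covered normalization, filters, test, replicate block, the median coding transcript length, each library left out and, chosen after seeing the data, St6galnac2 models summed and the 2 libraries highest in Muc19 left out.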

Additional observations from a re-analysis of the deposited data

Results flagged for a closer look

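The effect of Pou2f3 loss differed between females and males by the interaction term of the edgeR fit (female minus male log2 fold change, adjusted p under 0.05) for 8 members. The values were 3.21 (adjusted p = 0.0045) and 1.64 (adjusted p = 0.0063) for the St6galnac2 models ENSMUSG00000110170 and ENSMUSG00000057286, -0.78 (adjusted p = 0.013) for C1galt1, -0.51 (adjusted p = 0.016) for B4galt1, -0.91 (adjusted p = 0.016) for Galnt3, 0.69 (adjusted p = 0.022) for B4galt3, 7.64 (adjusted p = 0.04) for B3gnt6 and -1.32 (adjusted p = 0.041) for B4galt5, all by edgeR.

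For Galnt3, C1galt1, B4galt1 and B4galt3 the female groups did not overlap and the male groups did. For B3gnt6 the value rests on female knockout replicate 3 and male wild-type replicate 3, the libraries high in Muc19, and was -0.999 without them (adjusted p = 0.61 by edgeR). Outlying single libraries were not tested for in groups of 3.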

How the results depend on the processing

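Of the members' calls, 6 of 12 in females and 1 of 8 for the interaction held under every alternative. Between the sexes 14 of 22 held in wild type and 18 of 27 in knockout (22 settings in females and 21 in each of the others). Not counted among these is the St6galnac2 model ENSMUSG00000110170, untested in some settings. It kept its calls wherever it was tested, in females, for the interaction and between the sexes in wild type. In males 1 member was called with upper-quartile normalization, with library sizes from protein-coding genes or with at least 10 counts required, against 0.224%, 0.246% and 0.402% of all genes. The fit without the filter on low counts called 3 (1.26% of all genes) and DESeq2 called 2 (2.42%). Without the 2 libraries highest in Muc19 (chosen after seeing the data) the interaction called 3, against 6.21% of all genes, and B3gnt6 turned to -0.999. The members' median log2 fold change in females was -0.031 with upper-quartile normalization and -0.065 with protein-coding library sizes. The interaction median was -0.0099 without the filter, -0.18 with at least 10 counts and -0.30 without the Muc19 libraries. Between the sexes in knockout the median was 0.16 with upper-quartile normalization, 0.23 with protein-coding library sizes, 0.27 with the authors' factors, 0.37 with at least 10 counts and 0.41 without the Muc19 libraries. Upper-quartile normalization moved the median of all genes by 0.10 in females and -0.16 between the sexes in knockout. The cause of these changes was not tested.

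Leaving out 1 library at a time, calls in males ranged from 0 to 5 (5 without male knockout replicate 1, against 3.42% of all genes). For the interaction they ranged from 5 to 11 (5 without female wild-type replicate 2 or male knockout replicate 3). Shares of all genes are not given for those interaction fits, so their counts are no result about the members alone. Medians ranged from -0.19 to -0.0091 for the interaction, -0.17 to 0.14 between the sexes in wild type and 0.15 to 0.49 in knockout. Replicate numbers did not pair the samples, with correlations of deviations from -0.11 to 0.05 in females and -0.13 to 0.09 in males. With a replicate block Gcnt3 lost its call in females and B3gnt5 gained one (adjusted p = 0.049 by edgeR), and no member was called in males. For the interaction B3gnt6 and B4galt5 lost their calls and C1galt1c1 gained one (adjusted p = 0.034 by edgeR). Between the sexes B4galt7 lost its call in wild type, where B3gnt5 and Galnt5 gained one, and B3gnt5 gained one in knockout. The median coding transcript length moved the level per kilobase of B4galt1, C1galt1, Gcnt2 and St6galnac2 by more than their spread, with the same leading member in every family. Depth limits Gcnt3, B3gnt6, St6galnac3, the St6galnac2 model ENSMUSG00000110170 and the 11 untested members, which lie near the limit of 3 counts in some libraries.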
